A study of Rattus norvegicus with 18 samples.

Results

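Matrix metalloproteinases (MMPs), the related ADAMTS proteases and the tissue inhibitors of metalloproteinases (TIMPs) were followed in the cerebral cortex of rats after subarachnoid hemorrhage (SAH). The 10 genes were chosen by symbol: the proteases Mmp2, Mmp3, Mmp9, Mmp12, Mmp14, Adamts1 and Adamts4, and the inhibitors Timp1, Timp2 and Timp3. Earlier results of these data were known when these genes and the other lists were chosen. Their counts are therefore set beside the share of all genes as a description and not as a test. The 10 are among the 30735 genes in the deposited table, and all 10 were among the 18444 genes that passed the filter on low counts. RNA was sequenced from the cortex of 18 adult Sprague Dawley rats, forming a sham, an SAH 1d and an SAH 7d group of 6 rats each. SAH was made by endovascular perforation, in which a filament passed up the internal carotid artery pierces a vessel at the base of the brain, and the cortex was taken 1 or 7 days later. In the sham group the operation was done but no vessel was pierced, and the labels give no time point for it. The libraries held between 27270026 and 38271014 counts each. All libraries are of whole cortical tissue, in which more RNA per cell cannot be told apart from more cells of a type.

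MMPs are zinc-dependent enzymes that cut proteins of the extracellular matrix. Most are secreted as inactive proenzymes, Mmp14 is anchored in the cell membrane, and TIMPs bind and block the active enzymes. ADAMTS proteases are secreted relatives that cut proteoglycans such as versican, aggrecan and brevican. In the brain, these enzymes are best known for digesting the basal lamina of blood vessels and the proteoglycan matrix around neurons.

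Sequences just before the start of 4 of these genes are shown because Mmp12 and Mmp3, which both rose at 1 day, lie in the same run of MMP genes, Adamts1 was the member that both rose and fell, and Timp1 had the largest increase at 1 day. Each is the 250 bases before the RefSeq gene start in the rat build GRCr8, 5′ to 3′ on the strand of the gene. Capitals mark an AP-1 motif (TGANTCA) or an Sp1 motif (GGGCGG) found on either strand, and a STAT motif (TTCNNNGAA) was searched in the same way.

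Mmp12, chr8:12866402-12866651, plus strand: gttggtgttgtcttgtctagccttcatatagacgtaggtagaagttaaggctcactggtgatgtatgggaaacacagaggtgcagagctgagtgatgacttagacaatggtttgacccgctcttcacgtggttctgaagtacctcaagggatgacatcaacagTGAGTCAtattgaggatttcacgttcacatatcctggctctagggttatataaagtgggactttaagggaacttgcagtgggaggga

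Mmp3, chr8:12925031-12925280, plus strand: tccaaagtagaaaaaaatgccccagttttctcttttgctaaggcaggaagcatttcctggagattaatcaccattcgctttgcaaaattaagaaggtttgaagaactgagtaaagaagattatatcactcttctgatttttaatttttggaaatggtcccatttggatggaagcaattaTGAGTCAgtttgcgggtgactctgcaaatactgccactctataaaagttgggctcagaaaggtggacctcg

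Adamts1, chr11:38427385-38427634, minus strand: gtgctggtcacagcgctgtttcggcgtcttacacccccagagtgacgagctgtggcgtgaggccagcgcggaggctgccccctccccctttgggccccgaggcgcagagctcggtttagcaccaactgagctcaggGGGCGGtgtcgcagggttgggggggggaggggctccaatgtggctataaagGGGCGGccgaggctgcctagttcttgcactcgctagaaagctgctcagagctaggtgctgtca

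Timp1, chrX:3771123-3771372, minus strand: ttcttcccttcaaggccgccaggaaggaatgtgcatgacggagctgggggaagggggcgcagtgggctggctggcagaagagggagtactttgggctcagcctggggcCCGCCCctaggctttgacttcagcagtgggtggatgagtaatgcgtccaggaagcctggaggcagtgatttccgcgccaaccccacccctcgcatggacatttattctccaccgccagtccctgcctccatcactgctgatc

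The AP-1 letters began 87 bases before the start of Mmp12 and 71 bases before that of Mmp3. The same letters stood in 6.34% of the 33469 rat promoters in the RefSeq table, the STAT letters in 7.67% and the Sp1 letters in 30.5%. Of the 7 members with an entry, AP-1 letters were found in Mmp3 and Mmp12, STAT letters in Adamts4, and Sp1 letters in Adamts1, Timp1, Timp2 and Timp3. The entries of Mmp2, Mmp9 and Mmp14 were not in the table. The RefSeq record of Timp1 runs past the start used here, so this window precedes only 1 of the places where the gene may start.

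In the sham cortex Timp2 and Timp3 were more abundant than every protease, and Timp1 lay within the range of the proteases. The order was read in FPKM, which is per transcript length and so allows genes to be compared. Timp2 stood first at a median level of 94.0 FPKM (75.4 to 129 over the 6 libraries), followed by Timp3 at 19.3 FPKM (16.6 to 27.7), with no overlap between them. Adamts4 followed at 5.16 FPKM (3.98 to 6.81), also below every Timp3 value. The levels of Adamts4, Timp1, Mmp14, Mmp2, Adamts1 and Mmp9 then overlapped from each gene to the next, from 5.16 down to 1.501 FPKM. Mmp3 and Mmp12 lay lowest, with medians of 0.124 and 0.0141 FPKM, and 3 of the 6 sham libraries held no Mmp12 count. At SAH 1d, Timp1 stood second at 67.5 FPKM (40.2 to 854) and overlapped with Timp2 at 109 FPKM (102 to 121). At SAH 7d, Timp2 (119 FPKM) and Timp3 (36.1 FPKM, 26.6 to 43.3) again had the highest medians and did not overlap with each other. Timp3 overlapped with Timp1 (4.57 to 81.4 FPKM). In SAH 7d-5, Mmp12 (154 FPKM), Mmp14 (51.8 FPKM) and Mmp2 (47.4 FPKM) lay above every Timp3 value.

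**Figure D1:**
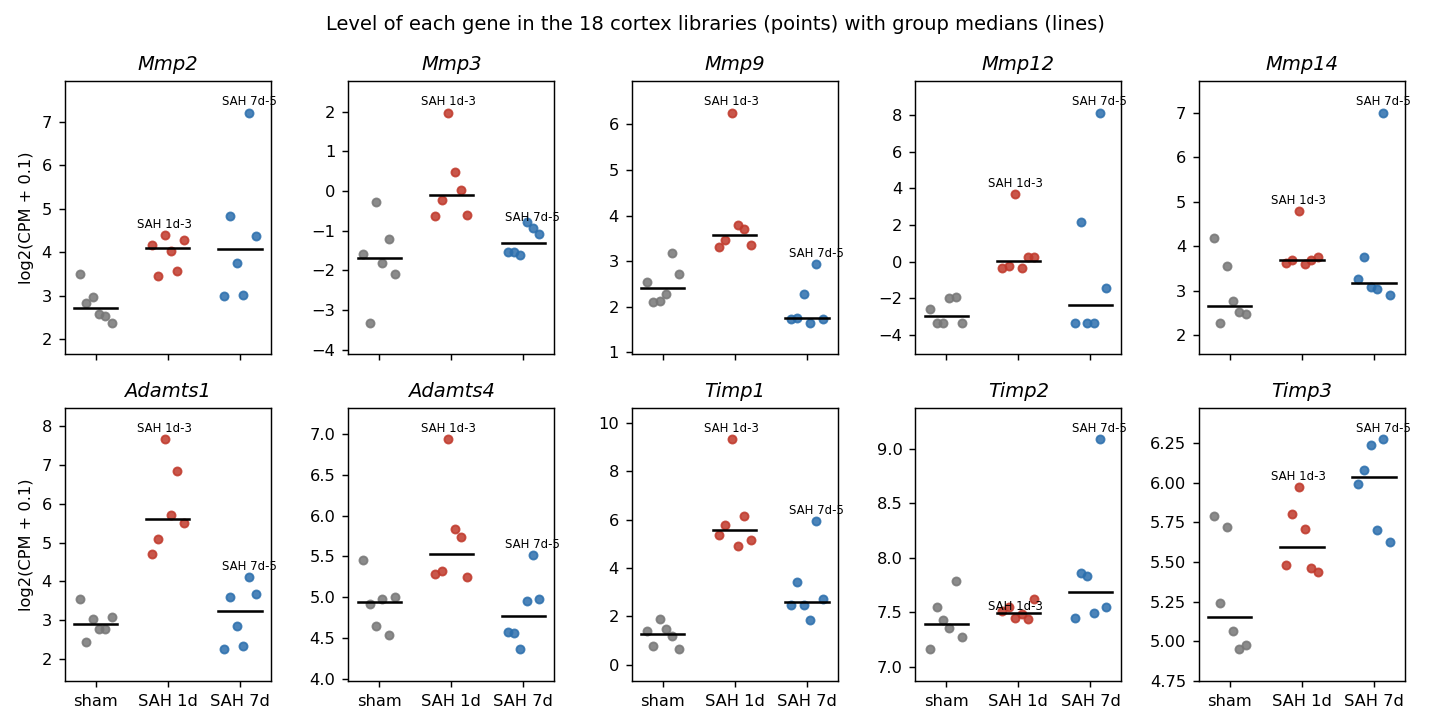
Level of each of the 10 genes in the 18 libraries, as log2 of counts per 1e+06 counts (CPM) plus 0.1, each point being 1 library and each line a group median. SAH 7d-5 and SAH 1d-3 are named: Timp1 reached 640.3 CPM in SAH 1d-3 and Mmp12 281 CPM in SAH 7d-5.

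As the plot of levels by library shows, SAH 7d-5 and SAH 1d-3 stood apart from the others of their groups. SAH 1d-3 held the highest SAH 1d level of every member but Timp2. SAH 7d-5 held the highest SAH 7d level of every member but Mmp3. The summed CPM of the macrophage markers was 8731 in SAH 7d-5 (93 to 281 in the other 5 SAH 7d libraries, 51 to 92 in sham), and all 5 measured markers of the 6 listed were highest there. Of that sum, 8006 CPM were Lyz2. Markers of fibroblasts of the meninges summed to 2400 CPM in SAH 7d-5 against 218 to 366 in the rest of its group and 161 to 336 in sham, with 5 of 5 highest there. Microglial markers reached 1746 CPM (206 to 683 in the other SAH 7d libraries) and neuronal markers were at 1777 CPM (5094 to 6725). Of the microglial sum, 1295 CPM were Csf1r. In SAH 1d-3, macrophage markers summed to 503 CPM (85 to 125 in the other SAH 1d libraries) and neutrophil markers to 62.8 CPM (6.3 to 14.8). Of the macrophage sum, 466.2 CPM were Lyz2, and none of the 5 markers was highest there over the 18 libraries, whereas 3 of the 5 neutrophil markers were, and Mpo was at 0. Endothelial markers summed to 261 CPM in SAH 1d-3 (130 to 158 in the other SAH 1d libraries), with 3 of the 4 measured highest there. Neutrophil markers summed to 90.4 CPM in SAH 7d-5 and to 1.9 to 5.1 CPM in sham, but 89.2 CPM of the SAH 7d-5 sum were Csf3r, with S100a8 at 0.212, S100a9 at 0.696, Cxcr2 at 0.272 and Mpo at 0 CPM. SAH 7d-2, which had the second highest SAH 7d level of Mmp2, Mmp12, Mmp14, Timp1 and Timp2, also had the second highest macrophage sum. Among the sham libraries, sham-1 had the lowest neuronal sum (4539 CPM, next 6016). It had the highest sham sums of astrocyte (3717 CPM, next 2638), oligodendrocyte, microglial, endothelial and mural markers. Astrocyte, oligodendrocyte and neuronal markers were present in every library, as the cortex label requires, and no listed marker with values was at 0 in all libraries. Markers of the choroid plexus summed to 993.6 CPM in SAH 1d-6 and 684 CPM in SAH 1d-4. They were at 3.67 to 33.2 CPM in the other SAH 1d libraries and 3.17 to 64.4 CPM in sham. Whether any of these cell types account for any member's level was not tested. Values without SAH 7d-5 and SAH 1d-3 are therefore given below where they end a call or move a value most.

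**Figure D2:**
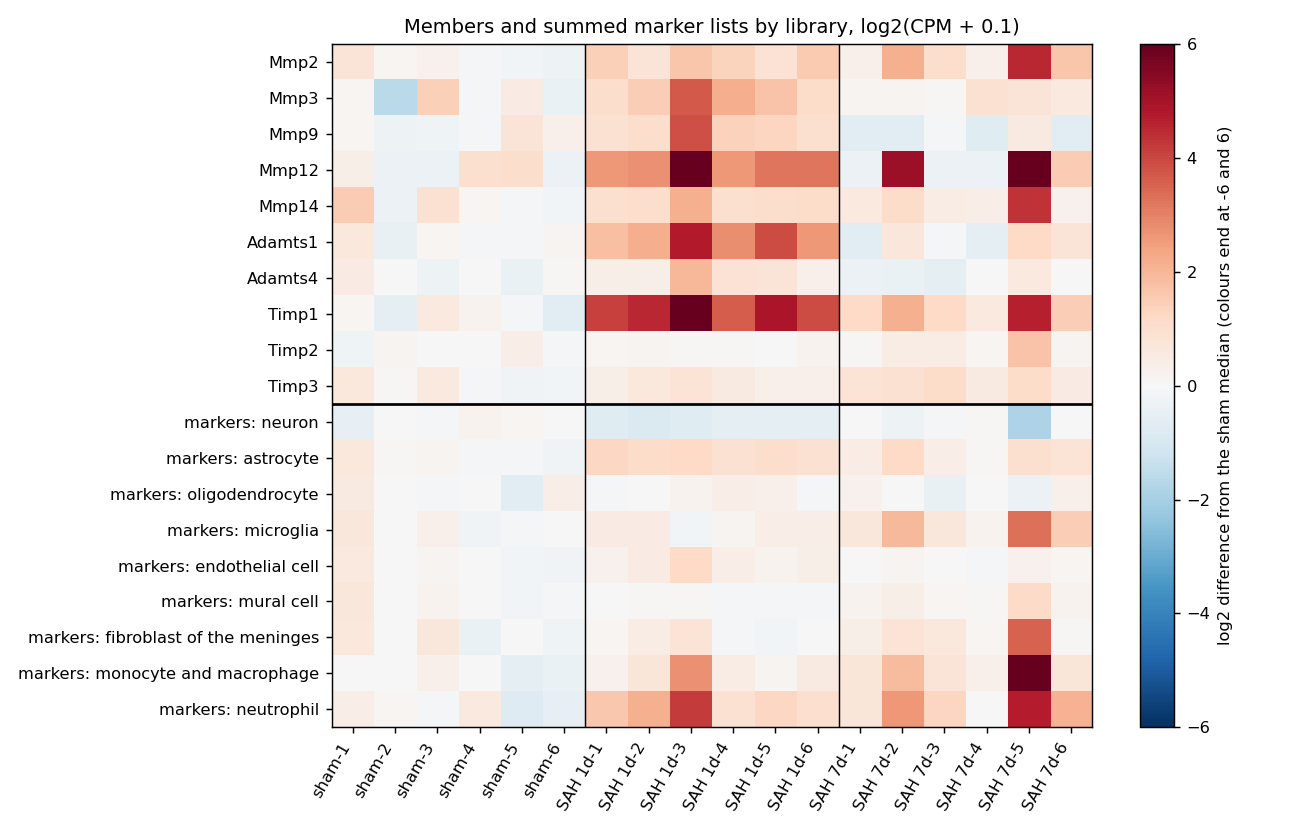
Difference from the sham median, in log2 of CPM plus 0.1, for the 10 genes (top) and the summed markers of 9 cell types (bottom), with 1 column per library. SAH 7d-5 shows high macrophage markers (8731 CPM) together with Mmp12, Mmp2 and Mmp14, while the increase of Timp1 and Adamts1 runs through all 6 SAH 1d libraries.

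The comparison of the SAH 1d group with sham asks which of these genes had changed a day after the bleeding. Of the 10 genes, 7 rose and none fell: Timp1, Mmp12, Adamts1, Mmp3, Mmp9, Mmp2 and Adamts4. Called here means an adjusted p under 0.05 in edgeR's quasi-likelihood test with Benjamini-Hochberg adjustment over the 18444 genes, by which 14.9% of all genes rose and 10.5% fell. In 6 of the 7 the increase was at least 2-fold, against 5.57% of all genes. The median log2 fold change of the 10 members was 1.58, and that of all genes 0.01. For Timp1, Mmp12, Adamts1 and Mmp9, every SAH 1d library lay above every sham library in CPM, which held for 7.89% of all genes. Without SAH 1d-3, 6 members rose (15.4% of all genes did), Mmp3 being the member lost.

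The comparison of SAH 7d with sham called none of the 10 genes, and 0% of all genes, in edgeR. At an unadjusted p under 0.05 there were 5 members, Mmp2, Mmp12, Mmp14, Timp1 and Timp3, and 2842 genes in all. DESeq2, a second count test, called Mmp2, Timp1 and Timp3 higher, against 2.27% of the 17916 genes to which it gave an adjusted p, and gave none to Mmp12 and Mmp14. limma with voom quality weights called none of the 10. No member had SAH 7d levels in CPM that all lay above sham, against 0.797% of genes.

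From SAH 1d to SAH 7d, the only member called was Adamts1, which fell, against 1.08% of all genes. Mmp9, Mmp3 and Adamts1 were lower in every SAH 7d library than in any SAH 1d library, against 2.11% of genes. Without SAH 7d-5 and SAH 1d-3, 5 members fell, namely Adamts1, Adamts4, Mmp3, Mmp9 and Timp1, against 7.49% of all genes. The 3 comparisons share libraries, so their values are set side by side below and are not independent of each other.

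**Figure D3:**
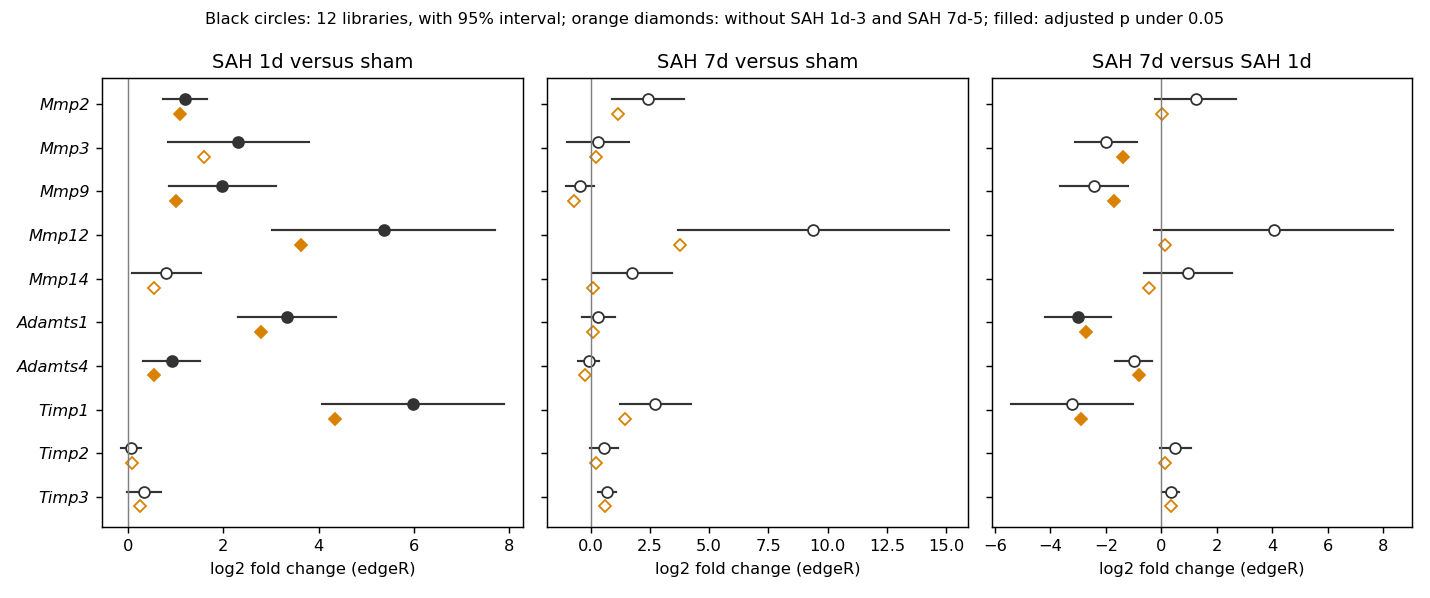
log2 fold change of each gene in the 3 comparisons from edgeR, as black circles with 95% intervals for the 12 libraries and as orange diamonds without SAH 7d-5 and SAH 1d-3. Filled symbols have an adjusted p under 0.05, as do 7 genes in SAH 1d versus sham, 0 in SAH 7d versus sham and 1 in SAH 7d versus SAH 1d.

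The gelatinases Mmp2 and Mmp9 digest collagen of the basal lamina and denatured collagen. Mmp9 had levels of 4.22, 5.21 and 8.90 CPM (lowest, median and highest) in sham, 9.84, 11.9 and 76.5 CPM at SAH 1d, and 3.05, 3.26 and 7.53 CPM at SAH 7d. All SAH 1d levels were above those of both other groups, and the second highest of them was 13.9 CPM. Mmp9 rose by a log2 fold change of 1.98 ± 0.52 (SE, adjusted p = 0.0155) from sham to SAH 1d, which became 1.01 (adjusted p = 0.0018) without SAH 1d-3. Its difference from SAH 1d to SAH 7d was -2.42 ± 0.56 (adjusted p = 0.0578), short of the threshold, and without SAH 7d-5 and SAH 1d-3 it fell by 1.72 (adjusted p = 0.000124). Leaving out either of these libraries alone was enough to bring the call (adjusted p = 0.0138 without SAH 1d-3 and 0.0183 without SAH 7d-5). Between SAH 7d and sham the value was -0.44 (adjusted p = 0.414), and -0.69 (adjusted p = 0.185) without SAH 7d-5.

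Mmp2, the gelatinase that Mmp14 activates at the cell surface, had levels of 5.12, 6.48 and 11.2 CPM in sham and 10.96, 17.0 and 20.9 CPM at SAH 1d. At SAH 7d they were 7.94, 17.1 and 149 CPM. The SAH 1d and sham ranges touched only between the highest sham and the lowest SAH 1d library, and the second highest SAH 7d library was at 28.3 CPM. Mmp2 rose from sham to SAH 1d by 1.19 ± 0.21 on the log2 scale (adjusted p = 0.00215), and by 1.10 without SAH 1d-3. With all 18 libraries in 1 fit the value was 1.18 and not called (adjusted p = 0.165). Its increase was the least dependent on SAH 1d-3 among the called MMPs. In SAH 7d versus sham its log2 fold change was 2.42 ± 0.70 (adjusted p = 0.214), and 1.15 (adjusted p = 0.164) without SAH 7d-5. The SAH 7d and SAH 1d groups differed by 1.24 (adjusted p = 0.421, 95% interval -0.21 to 2.69), a value of 0.04 without both libraries.

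Mmp14, the membrane-type protease, had levels of 4.77, 6.23 and 17.99 CPM in sham, 12.0, 12.9 and 27.5 CPM at SAH 1d and 7.43, 8.93 and 129 CPM at SAH 7d. The sham and SAH 1d groups overlapped because sham-1 reached 17.99 CPM. The log2 fold change at SAH 1d was 0.80 ± 0.34 (adjusted p = 0.096), and it passed the threshold only without sham-1 among the libraries left out in turn (1.14, adjusted p = 0.0121). It was 0.54 (adjusted p = 0.198) without SAH 1d-3, and limma with voom quality weights called it at 0.93 (adjusted p = 0.00441). limma on log2(FPKM + 0.1) also called it (0.99, adjusted p = 0.0239). So did limma on log2(FPKM + 1), filtered or not (0.80, adjusted p = 0.0269 and 0.0483), and edgeR with the replicate number as a block (0.91, adjusted p = 0.0354). The SAH 7d value against sham was 1.76 ± 0.77 (adjusted p = 0.311) with SAH 7d-5 and 0.12 without it. From SAH 1d to SAH 7d it changed sign, from 0.97 with SAH 7d-5 to -0.70 without that library, and was called in neither case.

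Mmp3, or stromelysin, can activate other proenzymes including that of Mmp9. It was scarce, with 46 counts over the 6 sham libraries, 273 at SAH 1d and 61 at SAH 7d. Levels were 0, 0.209 and 0.72 CPM in sham, 0.543, 0.833 and 3.83 CPM at SAH 1d, and 0.226, 0.305 and 0.479 CPM at SAH 7d. Mmp3 rose from sham to SAH 1d by 2.31 ± 0.69 (adjusted p = 0.0264) on the log2 scale. The call was lost without SAH 1d-3 (1.60, adjusted p = 0.0529), without sham-4 or without sham-6. SAH 7d lay below SAH 1d in all libraries, with a log2 fold change of -1.99 ± 0.51 (adjusted p = 0.0802), and without both libraries that stood apart Mmp3 fell by 1.37 (adjusted p = 0.0233). SAH 7d differed from sham by 0.32 (adjusted p = 0.776).

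Mmp12, the macrophage elastase, was nearly undetected in sham, with 12 counts over 6 libraries and a highest level of 0.165 CPM. At SAH 1d its levels were 0.68, 0.921 and 12.9 CPM, and the second highest was 1.11 CPM. At SAH 7d they were 0, 0.133 and 281 CPM, with 3 libraries at 0. All SAH 1d libraries were above all sham libraries, whereas SAH 7d-5 alone held 98.4% of the summed SAH 7d level. Mmp12 rose from sham to SAH 1d by 5.36 ± 1.09 on the log2 scale (adjusted p = 0.00417), a 41.2-fold increase that became 12.3-fold (adjusted p = 0.00102) without SAH 1d-3. With all 18 libraries in 1 fit it was not called (5.36, adjusted p = 0.119). The SAH 7d value against sham was 9.40 ± 2.63 (adjusted p = 0.214), with a 95% interval from 3.69 to 15.1, and 3.77 (adjusted p = 0.308) without SAH 7d-5. Between SAH 7d and SAH 1d it was 4.05 (adjusted p = 0.370) and turned to -1.62 without SAH 7d-5, and was 0.12 (adjusted p = 0.961) without both libraries. limma with voom quality weights called a fall, at -3.43 (adjusted p = 0.046). Macrophage markers, at 8731 CPM in SAH 7d-5, were highest in the same library, and they were 85 to 125 CPM in the 5 SAH 1d libraries other than SAH 1d-3, where Mmp12 was 0.68 to 1.11 CPM.

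The proteoglycan-cutting proteases moved in different degrees. Adamts1 had levels of 5.36, 7.47 and 11.5 CPM in sham, 25.9, 48.6 and 201.5 CPM at SAH 1d, and 4.67, 9.58 and 17.2 CPM at SAH 7d. The lowest SAH 1d library was above the highest of both other groups. Adamts1 rose from sham to SAH 1d by 3.34 ± 0.48 on the log2 scale (adjusted p = 0.000549), or 10.1-fold with a 95% interval of 4.96 to 20.7. It kept the call without any single library, with log2 fold changes of 2.80 to 3.52. From SAH 1d to SAH 7d it fell by 3.01 ± 0.55 on the log2 scale (adjusted p = 0.0191). This call was lost by a small margin when SAH 7d-1, SAH 7d-2 or SAH 7d-3 was left out, with adjusted p-values up to 0.0544 and log2 fold changes between -3.26 and -2.47 over all libraries left out in turn. Without SAH 7d-5 and SAH 1d-3 together it fell by 2.72 (adjusted p = 0.00217). SAH 7d and sham differed by 0.33 (adjusted p = 0.579, 95% interval -0.36 to 1.02).

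Adamts4, known as an aggrecanase with the highest median FPKM of the 7 proteases in sham, had levels of 23.2, 30.8 and 43.7 CPM in sham and 37.9, 46.6 and 122 CPM at SAH 1d. At SAH 7d they were 20.5, 27.4 and 45.7 CPM. The groups overlapped in CPM. Adamts4 rose from sham to SAH 1d by 0.92 ± 0.28 on the log2 scale (adjusted p = 0.0288), less than 2-fold, and by 0.55 (adjusted p = 0.0204) without SAH 1d-3. The call was lost when any 1 of sham-2 to sham-6 was left out, with adjusted p-values up to 0.0644. The difference from SAH 1d to SAH 7d was -0.99 ± 0.31 (adjusted p = 0.145), and without both libraries that stood apart Adamts4 fell by 0.80 (adjusted p = 0.00581). Between SAH 7d and sham the value was -0.07 (adjusted p = 0.858).

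Among the inhibitors, Timp1, which also binds the proenzyme of Mmp9, had the largest increase of the 10 genes at SAH 1d. Its levels were 1.45, 2.34 and 3.56 CPM in sham, 30.0, 48.5 and 640.3 CPM at SAH 1d, and 3.56, 6.04 and 61.5 CPM at SAH 7d. Every SAH 1d library exceeded every sham library by a wide gap, and the second highest SAH 1d library was at 71.8 CPM. Timp1 rose from sham to SAH 1d by 5.98 ± 0.89 on the log2 scale (adjusted p = 0.000684). Without SAH 1d-3 it rose 20.1-fold, a log2 fold change of 4.33 ± 0.27 (adjusted p = 6.48e-07). The SAH 7d value against sham was 2.74 ± 0.69 (adjusted p = 0.214), and 1.45 (adjusted p = 0.109) without SAH 7d-5, where Timp1 was at 61.5 CPM against 10.5 CPM in the next library. From SAH 1d to SAH 7d the log2 fold change was -3.23 ± 1.02 (adjusted p = 0.15), and without both libraries Timp1 fell by 2.90 (adjusted p = 0.000219). The annotation places Timp1 inside Syn1, a synaptic vesicle gene of neurons on the opposite strand, and the use of strand in counting is not given in the sources used here. Syn1 had a log2 fold change of -0.36 (adjusted p = 0.0617) at SAH 1d, opposite in sign to that of Timp1.

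Timp2, which takes part in the activation of Mmp2 by Mmp14, had the narrowest SAH 1d range of the 10 genes relative to its level. Levels were 143, 168 and 221 CPM in sham, 173, 180.4 and 196 CPM at SAH 1d, and 174, 207 and 544 CPM at SAH 7d. The log2 fold change at SAH 1d was 0.07 (adjusted p = 0.626) with a 95% interval of -0.14 to 0.28, which leaves out a change of 2-fold. At SAH 7d it was 0.57 against sham (adjusted p = 0.328), and 0.22 without SAH 7d-5. Against SAH 1d it was 0.51 (adjusted p = 0.394), and 0.12 without both libraries.

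Timp3, the inhibitor that binds to the matrix and also blocks ADAM and ADAMTS proteases, had levels of 30.8, 35.5 and 55.3 CPM in sham, 43.2, 48.4 and 62.7 CPM at SAH 1d, and 49.4, 65.6 and 77.3 CPM at SAH 7d. The medians stood in this order, and the groups overlapped. The SAH 7d value against sham was 0.68 ± 0.18 on the log2 scale (adjusted p = 0.214), a 1.60-fold difference with a 95% interval of 1.23 to 2.09. It was 0.63 (adjusted p = 0.155) without SAH 7d-5, so it depended less on that library than the values of Mmp2, Mmp12, Mmp14, Timp1 and Timp2 did. At SAH 1d the log2 fold change was 0.33 (adjusted p = 0.154), 0.25 without SAH 1d-3, and 0.44 (adjusted p = 0.0493) without sham-1. From SAH 1d to SAH 7d it was 0.35 (adjusted p = 0.269), and 0.36 (adjusted p = 0.0762) without both libraries. Timp3 lies inside Syn3 in the annotation. Syn3 fell by 0.60 on the log2 scale from sham to SAH 1d (adjusted p = 0.0343).

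The make-up of the inhibitor and protease transcripts differed between the groups, read here as shares of summed FPKM and with no test. Timp1 made up 1.57 to 3.45% of the FPKM of Timp1, Timp2 and Timp3 in sham, 22.8 to 86.0% at SAH 1d and 3.35 to 18.3% at SAH 7d. The SAH 1d shares were all above the others, and the highest SAH 7d share was that of SAH 7d-5. Of the summed FPKM of the 7 proteases, Adamts1 took 10.01 to 14.0% in sham, 21.4 to 52.2% at SAH 1d and 1.44 to 14.6% at SAH 7d. In SAH 7d-5 Mmp12 took 57.5% of the protease sum. The 3 TIMPs together had 5.17 to 11.8 times the summed FPKM of the 7 proteases in sham, with a median of 8.98. This ratio was 4.52 to 8.40 at SAH 1d (median 6.38) and 1.67 to 12.7 at SAH 7d (median 8.95), the lowest being SAH 7d-5, so the 3 ranges overlapped.

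**Figure D4:**
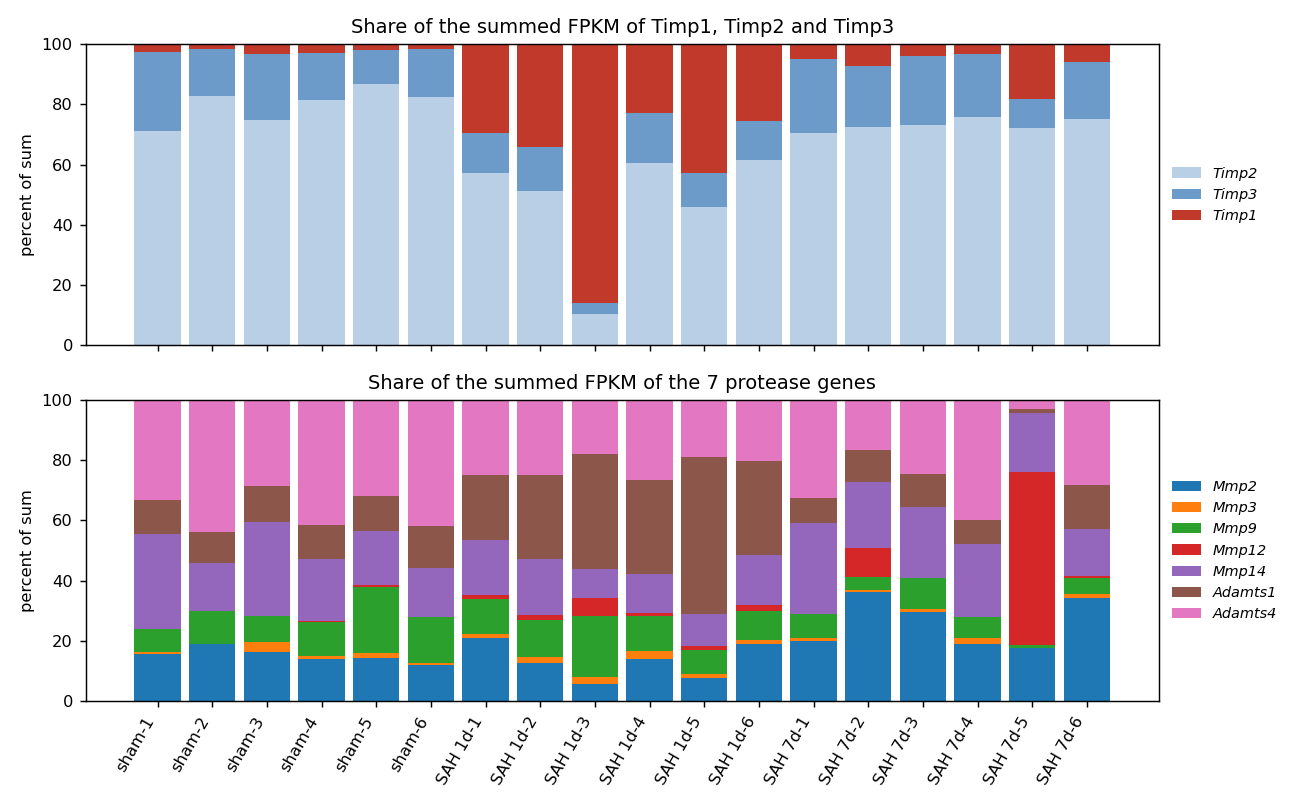
Shares of the summed FPKM of 3 TIMP genes (top) and of 7 protease genes (bottom), in percent, with 1 bar per library. Timp1 is between 22.8 and 86.0% of the TIMP sum in the SAH 1d libraries and at most 3.45% in sham, and Mmp12 is 57.5% of the protease sum in SAH 7d-5.

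Mmp12 and Mmp3 belong to a run of 10 MMP genes that follow each other on the chromosome in the RefSeq annotation, in the order Mmp13, Mmp12, Mmp1b, Mmp3, Mmp1, Mmp10, Mmp8, Mmp27, Mmp20 and Mmp7. Of these, 4 had no count in any library. Mmp10, another stromelysin, had 9 counts over the sham libraries, 98 at SAH 1d and 5 at SAH 7d, and did not pass the filter. Mmp13, a collagenase, had 15, 201 and 6 counts. The neutrophil collagenase Mmp8 had 54, 378 and 4319 counts, of which 4291 came from SAH 7d-5, and Mmp7 had 755 of its 761 SAH 7d counts in the same library. At SAH 1d, SAH 1d-3 alone gave 67 of the 98 Mmp10 counts, 117 of the 201 of Mmp13, 151 of the 273 of Mmp3 and 327 of the 378 of Mmp8. So the SAH 1d counts of these genes came in large part from SAH 1d-3, and the SAH 7d counts of Mmp12, Mmp8 and Mmp7 from SAH 7d-5.

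Other genes of the same families were read from lists by name. Of 17 other MMPs, 16 had a row and 10 were tested, of which 2 rose from sham to SAH 1d and none fell, beside 14.9% and 10.5% of all genes. These were Mmp13 (log2 fold change 3.47, adjusted p = 0.0104) and Mmp19 (2.20, adjusted p = 0.0007). Mmp19 rose from 1.32 to 2.05 CPM in sham to 5.12 to 19.3 CPM. Without SAH 1d-3 the values were 2.65 for Mmp13 and 1.73 for Mmp19, both still called. Mmp13 also fell from SAH 1d to SAH 7d by 4.74 on the log2 scale (adjusted p = 0.0363). It was the only gene of these lists called in that comparison with all 12 libraries. Of 16 other ADAMTS genes tested, 2 rose at SAH 1d, a share below the 14.9% of all genes, and none fell. They were Adamts9 (2.34, adjusted p = 0.00918) and Adamts7 (1.66, adjusted p = 0.0135), at 1.31 and 1.18 without SAH 1d-3 and still called. The median log2 fold change was 0.12 over the other MMPs tested and 0.25 over the other ADAMTS genes, beside 0.01 over all genes.

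Of 3 inhibitors outside the members, 1 rose, 1 fell and 1, Reck, was not called at SAH 1d (0.20, adjusted p = 0.215), where 14.9% of all genes rose and 10.5% fell. A2m, a broad protease inhibitor, rose from 1.88 to 4.06 CPM in sham to 8.17 to 20.9 CPM at SAH 1d, a log2 fold change of 2.61 (adjusted p = 3.43e-05), and 2.55 without SAH 1d-3. Timp4 fell by 0.91 (adjusted p = 0.00667), from a median of 16.02 to 8.33 CPM, and by 0.80 without SAH 1d-3. Timp4 lies inside Syn2 in the annotation, whose log2 fold change was -0.18 (adjusted p = 0.334).

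Of 8 genes for activators and partners of these enzymes, 6 rose at SAH 1d and none fell, beside 14.9% and 10.5% of all genes. Among them was Lcn2 (5.57, adjusted p = 9.39e-06), which encodes a protein that binds Mmp9. Plau, the urokinase whose product plasmin activates pro-MMPs, rose by 2.43 (adjusted p = 0.00905). Without SAH 1d-3 the log2 fold change of Lcn2 was 5.53 and that of Plau 1.56. Of 7 ADAM sheddases, which cut proteins from the cell surface, 3 rose, beside 14.9% of all genes: Adam8 (1.95, adjusted p = 0.0499), Adam17 (0.66, adjusted p = 0.0197) and Adam15 (0.41, adjusted p = 0.00396). Without SAH 1d-3, Adam8 was at 0.80 (adjusted p = 0.173) and no longer called.

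Of 6 genes for the proteoglycans that ADAMTS proteases cut and for matrix proteins that bind them, 1 rose and 2 fell at SAH 1d, beside 14.9% and 10.5% of all genes. Ncan, the neurocan gene, rose from a median of 68.1 to 104.5 CPM, by 0.78 on the log2 scale (adjusted p = 0.0104). Hapln1, a link protein that ties proteoglycans to hyaluronan, fell by 1.156 (adjusted p = 0.00822) from 98.4 to 48.1 CPM, and Bcan, the brevican gene, fell by 0.66 (adjusted p = 0.0207). Without SAH 1d-3 the values were 0.59 for Ncan, -0.97 for Hapln1 and -0.52 for Bcan, all still called. Summed neuronal markers were lower in all SAH 1d libraries (3510 to 4428 CPM) than in sham (4539 to 7470 CPM). Summed astrocyte markers were higher (4451 to 5617 against 2029 to 3717 CPM). In SAH 1d-3, 3769 of the 5372 CPM of the astrocyte sum were Gfap. The part of these markers in the values of the proteoglycan and matrix genes was not tested. The median log2 fold change at SAH 1d was 1.71 over the activators and partners, 0.41 over the ADAM sheddases and 0.20 over the 3 other inhibitors. It was 0.06 over the 6 genes for proteoglycans and the proteins that bind them, beside 0.01 over all genes. At SAH 7d no gene of these lists passed the edgeR test against sham. From SAH 1d to SAH 7d, more genes of these lists were called without SAH 7d-5 and SAH 1d-3, where 7.49% of all genes fell. Among them, Lcn2 fell by 4.02 (adjusted p = 0.00101). A2m fell by 1.71 (adjusted p = 0.0024), against a value of 2.03 with all 12 libraries. Hapln1 rose by 0.86 (adjusted p = 6.78e-05) and Timp4 by 0.90 (adjusted p = 0.0072).

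The genes whose levels followed each member most closely were taken by Pearson's r of log2 CPM over the 18 libraries, as a description, since the libraries share groups and SAH 7d-5 and SAH 1d-3 weigh heavily. Timp1 was nearest to Pdpn (r = 0.983), Stat3 and Cct4, and its r with Pdpn was 0.973 over the 16 libraries without those that stood apart. Adamts1 was nearest to Sox7 (r = 0.962), Tnfrsf12a and Ppp1r15a. Adamts4 was nearest to Ano1 (r = 0.944), Mcam and Eif2s1, Mmp9 to Mtpap (r = 0.934), LOC108348083 and Wdr43, and Mmp3 to Naa15 (r = 0.898), Ccdc88c and Pmaip1. Mmp2 was nearest to Fhod1 (r = 0.973), Dock8 and Ifi30, and Mmp14 to Dab2 (r = 0.965), Nid1 and Gpx8. Mmp12 was nearest to Fhl3 (r = 0.958), Vasp and Gabarap. Timp2 was nearest to Trpv2 (r = 0.962), LOC100909505 and Pla2g15, with r = 0.892, 0.598 and 0.579 over the 16 libraries. Timp3 was nearest to Clec10a, a lectin of myeloid cells (r = 0.923 over 18 and 0.923 over 16 libraries), Sfrp1 and Nupr1.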

How the data were processed

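Total RNA of 18 rat cortex samples was sequenced by the authors, who removed adapters and low-quality reads and aligned the rest to the rat genome Rnor_6.0. The submitters' notes name fastp, HISAT2 and DESeq2 (1.16.1) without their roles, and the sources used here do not give the counting program or whether it used strand. The labels also name mouse build mm9, but the gene identifiers are of the rat. The labels call the tissue bilateral cortex, the study's methods cortex of the injured side.

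The deposited counts are raw whole numbers per gene and library. FPKM, per kilobase of transcript and 1e+06 mapped reads, was computed by the authors from the same alignments. Libraries were assigned to groups by column names, which equal the deposited descriptions.

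Counts were tested in edgeR 4.0.16 (R 4.3.3) with TMM factors, filterByExpr over 18 libraries and the quasi-likelihood F test (two-sided) on the 12 libraries of each comparison, with Benjamini-Hochberg adjustment over 18444 genes. SE is the log2 fold change divided by the square root of F. CPM uses the TMM factors. The test was tested on simulated data. Alternatives used DESeq2 1.42.0, limma 3.58.1 (voom, and log2(FPKM + 1) or log2(FPKM + 0.1)), other filters and size factors, a replicate block, and libraries left out. The 10 genes and all lists were chosen with earlier results of these data known. All members are named in every comparison. From each other list, at most the 3 genes with the largest absolute log2 fold change among those called in SAH 1d versus sham or SAH 7d versus SAH 1d are named, except that 1 gene of the activators and partners is not reported here by name.

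Totals were 27270026 to 38271014 counts per library, and Mmp3 and Mmp12 had the lowest sham counts of the 10 genes, with medians of 6.5 and 1. What limits the precision of their values was not tested. No 2 libraries of a group agreed within sampling noise (lowest chi-square per degree of freedom 13.9 over 45 pairs).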

Additional observations from a re-analysis of the deposited data

Results flagged for a closer look

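In each group of 6, a library was marked where its gap to the nearest other exceeded 0.625 of the range (Dixon's 95% critical value). Of 30 groups (10 genes in 3 groups), 11 held such a library. The critical value marks about 1 in 20 groups of normal, independent values. CPM was used here without a log and the 10 genes share libraries, so the count of 11 cannot be set against that rate. All 11 were the highest value of SAH 1d-3 (6 genes) or SAH 7d-5 (5 genes), and none was in sham.

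In SAH 1d-3 these were Timp1 at 640.3 CPM (next library 71.8), Mmp9 at 76.5 CPM (next 13.9), Adamts4 at 122 CPM (next 57.0), Mmp14 at 27.5 CPM (next 13.4), Mmp12 at 12.9 CPM (next 1.11) and Mmp3 at 3.83 CPM (next 1.29). In SAH 7d-5 they were Timp2 at 544 CPM (next 232), Mmp12 at 281 CPM (next 4.40), Mmp2 at 149 CPM (next 28.3), Mmp14 at 129 CPM (next 13.5) and Timp1 at 61.5 CPM (next 10.5). Macrophage markers summed to 8731 CPM in SAH 7d-5, of which 8006 CPM were Lyz2 and where all 5 measured were highest. They summed to 503 CPM in SAH 1d-3, of which 466.2 CPM were Lyz2 and where none was highest. Their part in these values was not tested.

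Adamts1 differed between the time points by a log2 fold change of -3.01 from SAH 1d to SAH 7d, which is the test of the difference between the SAH groups against the same sham group.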

How the results depend on the processing

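In SAH 1d versus sham, 7 members were called, 4 by DESeq2 (which gave Timp1, Mmp9 and Mmp12 no adjusted p), 8 by voom and 5 with all 18 libraries in 1 fit (without Mmp2 and Mmp12). The limma fits called 8, 9 and 6 (pseudocount 1, 0.1, and 1 with no filter). With 1 library left out 5 to 9 were called, the 9 without sham-1. Genes called were 4684 in the fit of 12 libraries, 5596 by DESeq2, 6502 by voom and 2462 by the 18-library fit. They were 4661, 4703 and 4394 by the limma fits in the same order, and 3517 to 5252 with 1 library left out. In SAH 7d versus sham, 0 members were called under every setting but DESeq2 (3), with 459 genes by DESeq2, 2 by voom, 9 by the 18-library fit and 0 to 3 with 1 library left out. Overlap was also read in FPKM, an alternative chosen after seeing the data. In FPKM 1 member (Timp1) did not overlap in SAH 7d versus sham. In SAH 1d versus sham 6 did not, with Mmp2 and Adamts4 added to the 4 in CPM. The share of all genes is not given for FPKM. In SAH 7d versus SAH 1d, where 1 member was called, 3 were by DESeq2, 6 by voom, 4 by the 18-library fit, 2 by limma on log2(FPKM + 0.1), 5 without both libraries that stood apart (SAH 7d-5, SAH 1d-3), and 0 to 5 with 1 library left out. Genes called there were 252, then 1012 by DESeq2, 2718 by voom, 779 by the 18-library fit, 414, 420 and 393 by the limma fits (pseudocount 1, 0.1, and 1 with no filter), 2512 without both libraries and 102 to 1545 with 1 left out.

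Signs turned for values that were not called in the fit of 12 libraries. In SAH 7d versus SAH 1d, Mmp2 was at -0.175 (voom) and -0.054 (without SAH 7d-5, up to 1.451 with 1 other library left out), and Mmp12 at -3.43 (voom, called at an adjusted p of 0.046), -0.39 (log2(FPKM + 0.1)), -1.09 (block) and -1.62 (without SAH 7d-5, up to 5.803). Mmp14 was at -0.49 (voom), -0.010 and -0.010 (log2(FPKM + 1), filtered or not), -0.074 (log2(FPKM + 0.1)), -0.168 (block), -0.44 (without both) and -0.70 (without SAH 7d-5, up to 1.230). In SAH 7d versus sham, Adamts4 was at 0.015 without SAH 7d-3 and 0.062 without sham-1, over a range from -0.237 with 1 library left out. The cause was not tested.

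The replicate numbers name different rats, and same-numbered libraries had deviations correlated over 0.1 in 0 of 6, 0 of 6 and 1 of 6 pairs. With the replicate number as a block, 6, 0 and 0 members and 3979, 0 and 29 genes were called in SAH 1d versus sham, SAH 7d versus sham and SAH 7d versus SAH 1d. In SAH 1d versus sham the block added Mmp14 (adjusted p = 0.0354) and ended the calls of Mmp9 (adjusted p = 0.0524) and Adamts4 (adjusted p = 0.0818).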
